A study of Mus musculus with 6 samples.

Results

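The 9 genes described here, Hcn4, Tbx3, Shox2, Isl1, Irx3, Cacna1g, Kcnj3, Gja5 and Gjc1, are known for their roles in the pacemaker and conduction system of the heart, and they were chosen by name from 21951 protein-coding genes in GENCODE M21. Every ATAC-Seq peak that overlapped the body of one of these genes or the 10 kb on either side of it was taken. Merged across the libraries, these peaks formed 80 regions of 169872 in the genome. Omni-ATAC-Seq reads open chromatin as the sites where a transposase can insert its adapters, and it had been applied to 50000 nuclei per library from mouse hearts at postnatal day 1, all purified on a 2.2 M sucrose cushion, a step used in the study to select cardiomyocyte nuclei. The 6 libraries formed 3 groups of 2 independent biological replicates.

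The Input libraries came from wildtype (C57BL/6J) hearts, and their nuclei were taken from the cushion without immunoprecipitation. The PCM1 libraries also came from wildtype hearts, and their nuclei were enriched with an antibody to PCM1, a centrosomal protein that marks cardiomyocyte nuclei. The Myc libraries came from hearts of the genotype Nkx2-5 Cre/+; R26RSun1-Myc-Egfp/+, and their nuclei were enriched with a Myc antibody. In those hearts a Myc-tagged nuclear membrane protein at the ROSA26 locus is switched on wherever Nkx2-5 Cre has acted, so the tag marks a lineage that includes cardiomyocytes, smooth muscle and endothelium. Both enrichments used magnet-assisted nuclear immunoprecipitation (MAN-IP). In the study's scheme part of the purified nuclei was set aside as Input and the rest went to MAN-IP, so an Input and a PCM1 library, both from wildtype hearts, may share a nuclei preparation. The labels do not say whether any do. The Myc group therefore differed from the others in genotype as well as in antibody, and these cannot be told apart.

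The heartbeat starts in the sinoatrial node, whose cells depolarize on their own through HCN channels and T-type calcium channels, and it reaches the ventricles through the atrioventricular node and the His-Purkinje network. TBX3, SHOX2 and ISL1 maintain the nodal program and hold back genes of working muscle, while IRX3 and the connexin Cx40, encoded by Gja5, belong to the fast-conducting network. Cells of this system are few in a whole heart, and most of the 9 genes are also used by working atrial or ventricular cardiomyocytes or by other cardiac cells. In nuclei pooled from whole hearts, fewer cells with an open site and a less open site in each cell cannot be told apart.

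The regions whose sequences follow are shown because they are the strongest non-exonic ones of their gene or because the 3 groups of nuclei were separated there. Each sequence is the plus strand of GRCm38 (mm10), 5′ to 3′, within 100 bp of the summit of the strongest peak, with transcribed untranslated bases left out. Distances are from the annotated start of the gene, with negative values upstream. Capitals mark a T-box half-site (AGGTGT) or an NKX2-5 element (TNAAGTG), on either strand.

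Hcn4 +24.5 kb, intron 2, chr9:58847804-58848004: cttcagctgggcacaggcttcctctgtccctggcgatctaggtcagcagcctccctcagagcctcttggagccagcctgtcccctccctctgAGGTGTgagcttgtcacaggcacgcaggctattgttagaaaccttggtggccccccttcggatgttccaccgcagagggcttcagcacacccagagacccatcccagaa
Hcn4 -5.48 kb, intergenic, chr9:58817836-58818036: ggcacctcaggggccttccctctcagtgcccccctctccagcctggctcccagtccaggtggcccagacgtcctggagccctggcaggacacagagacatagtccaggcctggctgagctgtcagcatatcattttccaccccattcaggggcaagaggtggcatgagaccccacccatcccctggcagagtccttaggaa
Gja5 +158 kb, intron 3, chr3:97062943-97063143: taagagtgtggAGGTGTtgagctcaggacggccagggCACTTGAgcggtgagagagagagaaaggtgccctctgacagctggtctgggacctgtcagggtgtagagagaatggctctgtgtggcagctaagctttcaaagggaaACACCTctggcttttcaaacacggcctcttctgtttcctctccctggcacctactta
Cacna1g +23.0 kb, intron 9, chr11:94451102-94451302: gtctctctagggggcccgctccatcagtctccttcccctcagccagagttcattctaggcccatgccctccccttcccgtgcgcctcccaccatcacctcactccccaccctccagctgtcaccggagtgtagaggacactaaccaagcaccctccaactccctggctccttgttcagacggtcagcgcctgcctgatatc
Cacna1g -0.233 kb, promoter side, chr11:94474331-94474531: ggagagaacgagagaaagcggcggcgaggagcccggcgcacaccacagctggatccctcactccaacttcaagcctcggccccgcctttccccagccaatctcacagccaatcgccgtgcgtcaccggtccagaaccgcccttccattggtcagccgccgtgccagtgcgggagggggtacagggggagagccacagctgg
Isl1 -0.057 kb, promoter side, chr13:116309690-116309846: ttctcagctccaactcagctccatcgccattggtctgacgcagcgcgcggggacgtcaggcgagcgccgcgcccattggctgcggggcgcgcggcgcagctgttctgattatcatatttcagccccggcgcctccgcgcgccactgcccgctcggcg
Gjc1 +18.4 kb, intron 2, chr11:102801196-102801362: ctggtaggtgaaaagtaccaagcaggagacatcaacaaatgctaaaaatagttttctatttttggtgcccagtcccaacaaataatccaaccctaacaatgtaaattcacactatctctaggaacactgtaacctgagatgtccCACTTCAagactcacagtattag
Kcnj3 +44.5 kb, intron 3, chr2:55480373-55480573: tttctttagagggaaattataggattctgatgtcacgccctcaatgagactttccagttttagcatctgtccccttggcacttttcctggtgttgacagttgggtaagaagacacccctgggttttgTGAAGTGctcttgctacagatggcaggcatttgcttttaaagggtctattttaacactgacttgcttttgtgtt

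The half-site in intron 2 of Hcn4 began 8 bp to the left of the summit, and the intron 3 region of Gja5 held 2 T-box half-sites and 1 NKX2-5 element within its 201 bases. Of the 80 regions, 12 (15.0%) held a T-box half-site in this window, against 8.83% of all 169872 regions, and 12 (15.0%) held an NKX2-5 element, against 10.9%. The element of TEAD factors (GGAATG) was in 6 (7.5%), against 15.0% of all regions, and the GATA element (AGATAA) was in 9 of the 80, against 12.0%. All 4 motifs were searched on both strands, and the T-box and NKX2-5 letters share the run GTG. The median share of G and C bases in these windows was 55.5% for the 80 regions, against 50.7% for all regions. The motif shares were not adjusted for this difference. A match is a run of letters and was not tested for binding.

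Each deposited list gave 75336 to 131500 peaks, and the pileup at a peak's summit, the number of extended read ends (tags) over it, was solved from the deposited fold and p-value. The most frequent local background, used as the measure of depth, was 3.96 in Input replicate 1 and 0.903 to 1.44 in the other 5 libraries. Peaks were compared by their rank percentile within the library, on a scale where 100 is the strongest peak by q-value and 0 stands for no peak. A missing peak means only that none was detectable at that depth. Because ranks move with depth, the pileup divided by the genome-wide background is given beside the ranks that matter. That quotient moves in turn with the share of reads that fall outside peaks, which was not measured here. With 2 libraries against 2, an exact two-sided permutation test cannot give a p-value under 0.333, so groups were compared by whether their libraries overlapped and no test between groups was run.

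All 9 genes had a peak in their window in all 6 libraries, as did 75.8% of all protein-coding genes. A peak within 1 kb of an annotated transcription start site (TSS) of the gene was present in all 6 libraries for 8 of the 9, against 61.1% of all genes, the exception being Shox2. Of the 80 regions, 26 (32.5%) were found in all 6 libraries and 21 in a single library, against 28.8% and 30.4% of all regions. The regions were not spread evenly. Gja5 held 22, Hcn4 14, Cacna1g 12, Kcnj3 11, Gjc1 8, Tbx3 6, Shox2 3, Isl1 2 and Irx3 2, which came to 6.04 to 23.4 regions per 100 kb of window, with a median of 11.4 against 10.2 over all genes. Across libraries the windows held 66 and 39 peaks for Input, 52 and 53 for Myc, and 45 and 47 for PCM1.

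**Figure D1:**
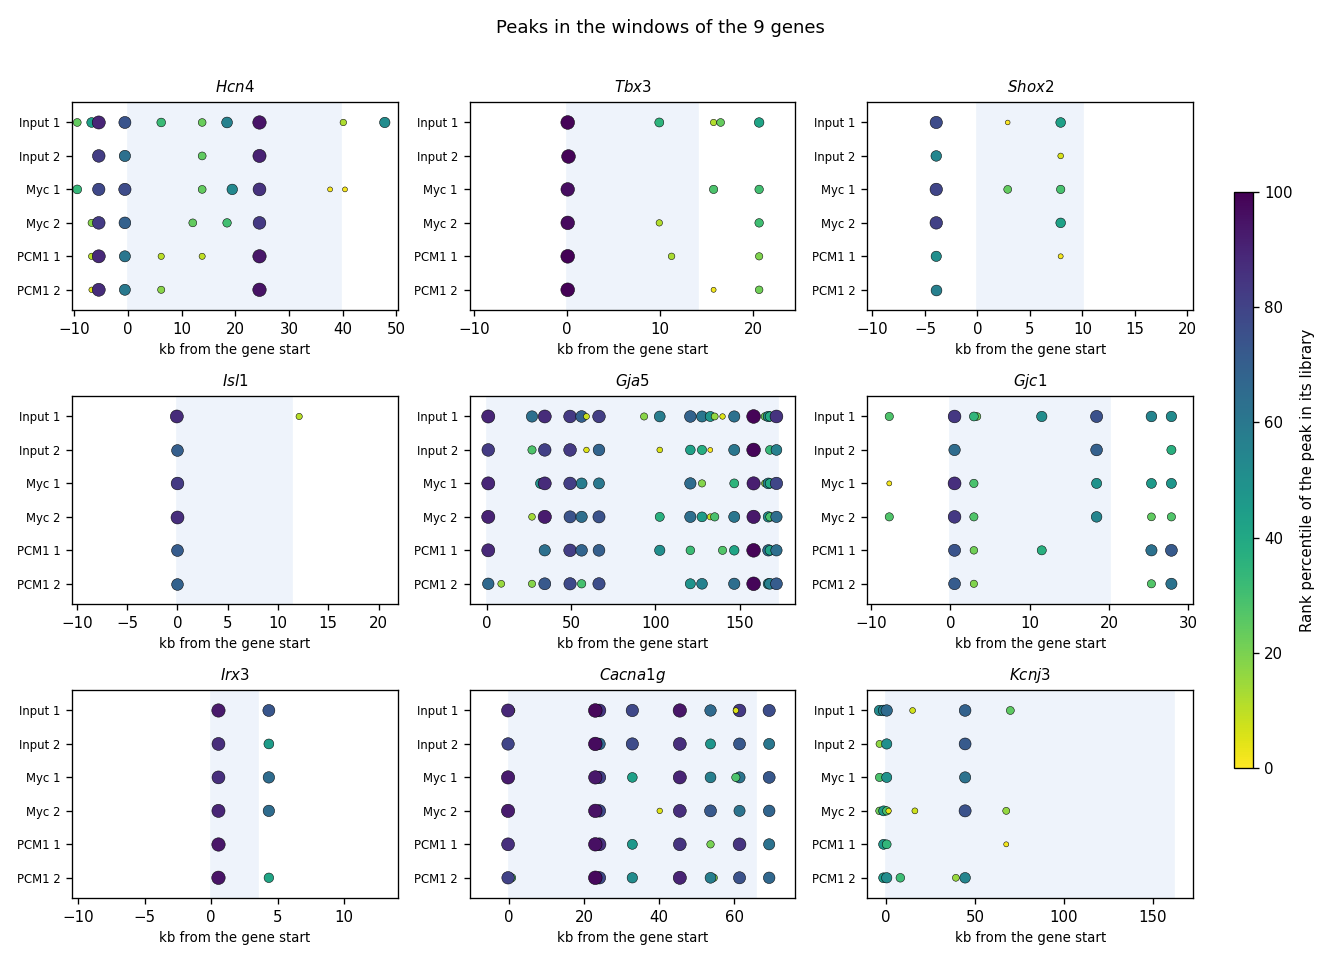
Every peak in the windows of the 9 genes, by distance from the gene start in kb (x axis) and library (y axis), with the gene body shaded and the size and colour of each point giving the peak's rank percentile. Tbx3, Isl1 and Irx3 carried their strongest peaks at the start of the gene, and Hcn4, Gja5 and Cacna1g carried theirs inside introns.

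The median of the strongest-peak percentiles over the 9 genes was 93.0 and 86.9 in the Input libraries, 86.5 and 87.1 for Myc, and 93.9 and 94.9 for PCM1. Over all protein-coding genes, including those without a peak, it was 91.1 and 84.1, 90.5 and 90.4, and 84.6 and 84.0. With the zeros counted, the medians of the 9 genes were above those of all genes in Input and PCM1, and below them in Myc. The medians over only the genes with a peak are not given here.

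**Figure D2:**
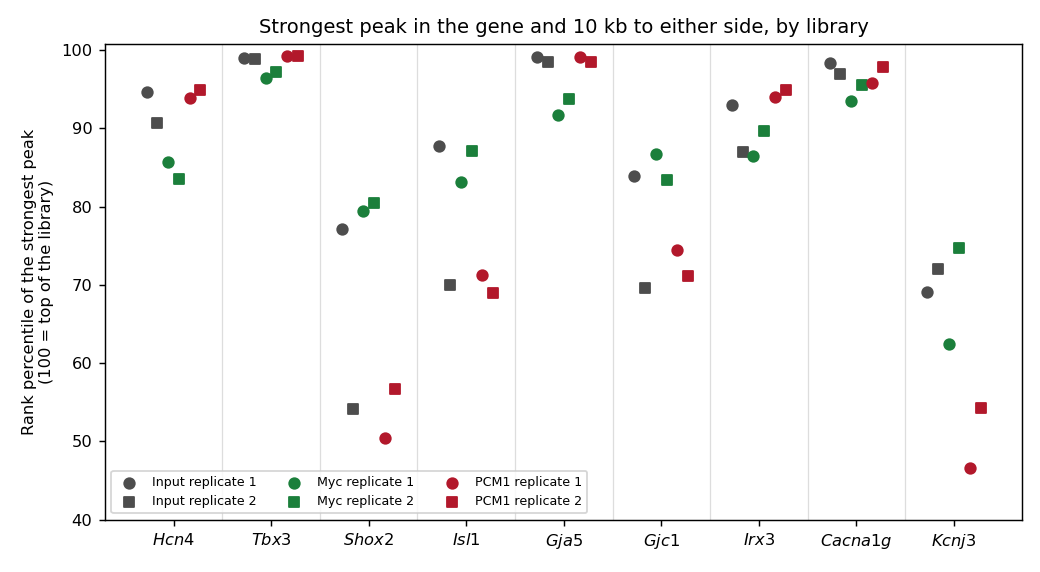
Rank percentile of the strongest peak of each gene (y axis, from 40 to 100) in the 6 libraries, with 1 point per library. The 2 Myc libraries lay below the 4 others at Hcn4, Tbx3, Gja5 and Cacna1g and above the PCM1 libraries at Shox2, Isl1, Gjc1 and Kcnj3. The Shox2 values are those of the Rsrc1 promoter peak.

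Among the transcription factors, Tbx3 had the most prominent promoter. Tbx3 (ENSMUSG00000018604.18, chr5:119670669-119684724, plus strand) encodes a T-box repressor that keeps nodal cells from taking on the chamber program. Its strongest peak, +0.06 kb from the gene start in the untranslated first exon and in an intron of the antisense gene Tbx3os1, reached percentile 99.0 and 98.9 for Input, 96.4 and 97.2 for Myc, and 99.3 and 99.3 for PCM1. The groups did not overlap, with PCM1 highest and Myc lowest, although the whole range was under 3 percentile points. The pileup over background was 207 (95% Poisson interval 194 to 222) and 246 (217 to 278) in Input, 151 (132 to 173) and 171 (151 to 194) in Myc, and 243 (213 to 276) and 267 (234 to 303) in PCM1. On this scale the Myc libraries remained lowest, while Input and PCM1 overlapped. The other 5 regions in the Tbx3 window were weak, and of these only that at +20.7 kb was seen in more than 3 libraries, at percentiles from 19.4 to 41.6 in the 5 libraries that had it. These intervals cover counting error only.

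Irx3 (ENSMUSG00000031734.13, chr8:91798525-91802067, minus strand) encodes a homeobox factor of the His-Purkinje network. Its start region at +0.544 kb reached percentile 93.0 and 86.9 for Input, 86.5 and 89.7 for Myc, and 94.0 and 94.9 for PCM1. Both PCM1 libraries were above the 4 others, and Input and Myc overlapped. In pileup over background the PCM1 mean of 145 ± 19.3 (SD, n = 2) was 1.51 times the Input mean of 95.9 ± 1.64 and 1.64 times the Myc mean of 88.0 ± 15.5. The region lies in the 5′ end of Irx3 and in an intron of the antisense gene Irx3os, and the assay does not assign it to either strand. By rank, the only other region of the window, at +4.34 kb and past the end of the gene, went the other way. Its percentiles were 73.1 and 45.2 for Input, 65.1 and 65.0 for Myc, and 0 and 41.4 for PCM1. Its pileup over background was 40.7 and 38.1 for Input, 42.3 and 48.1 for Myc, and 44.3 in PCM1 replicate 2. The PCM1 replicate 2 value was above both Input libraries, and PCM1 replicate 1 had no peak there.

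Isl1 (ENSMUSG00000042258.13, chr13:116298281-116309689, minus strand) encodes a LIM-homeodomain factor of cardiac progenitors that stays on in the sinoatrial node. It had 1 region of consequence, at its start (-0.057 kb), with percentiles of 87.8 and 70.0 for Input, 83.2 and 87.1 for Myc, and 71.2 and 69.0 for PCM1. By rank, both Myc libraries were above both PCM1 libraries, and the Input libraries lay across both. The summit held 59 and 70 tags for Myc and 25 and 23 for PCM1. This gave 40.9 (31.2 to 52.8) and 48.7 (38.0 to 61.6) over background in Myc against 25.6 (16.6 to 37.8) and 25.5 (16.1 to 38.2) in PCM1. The Input libraries were at 36.1 (30.5 to 42.6) and 28.3 (19.0 to 40.7). On this scale the groups did not overlap, with Input between Myc and PCM1, but the Input intervals overlapped those of both. The second region, +12.1 kb from the start, was seen only in the deepest library, Input replicate 1, at percentile 10.6.

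Shox2 had the weakest peaks at its own start. Shox2 (ENSMUSG00000027833.16, chr3:66971727-66981771, minus strand) encodes a homeobox factor that sets up the sinoatrial node. Near its TSSs a peak at +2.88 kb was found in Input replicate 1 at percentile 0.0441 and in Myc replicate 1 at 24.0, and no peak was detectable in the other 4 libraries. A region over a coding exon at +7.93 kb was at 43.4 and 6.23 for Input, 29.0 and 42.8 for Myc, and 1.94 and 0 for PCM1, so that both PCM1 libraries were below the 4 others. The strongest peak of the window, at -3.93 kb, belongs by position to the untranslated first exon of the neighbouring gene Rsrc1, which encodes a splicing-related protein. Its percentiles were 77.2 and 54.1 for Input, 79.5 and 80.5 for Myc, and 50.5 and 56.7 for PCM1, with both Myc libraries above the 4 others. The values counted for Shox2 by the 10 kb window are therefore those of the Rsrc1 promoter. Shox2 was the gene whose strongest peak varied most over the 6 libraries, and the genes nearest to its pattern were Rsrc1 itself through the shared peak, and then Il1r2 and Fam209 at mean absolute differences of 2.19 and 2.92 percentile points over the 6 libraries.

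Among the ion channel genes, an intronic region of Hcn4 ranked lower in Myc than in both other groups. Hcn4 (ENSMUSG00000032338.9, chr9:58823412-58863175, plus strand) encodes the main channel of the pacemaker current in the sinoatrial node. The intron 2 region at +24.5 kb, whose sequence carries the T-box half-site by its summit, reached percentile 94.7 and 90.7 for Input, 85.7 and 83.5 for Myc, and 93.9 and 94.9 for PCM1. The Myc libraries were below the 4 others, and Input and PCM1 overlapped. The summit held 304 and 76 tags for Input, 67 and 61 for Myc, and 94 and 101 for PCM1. Divided by the background this gave means of 75.5 ± 1.84 for Input, 44.5 ± 2.84 for Myc and 104 ± 11.1 for PCM1 (SD, n = 2 each), and on this scale the 3 groups did not overlap. The PCM1 mean was 2.34 times the Myc mean.

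The upstream region of Hcn4 at -5.48 kb had the same order of means. Its percentiles were 89.7 and 82.1 for Input, 78.4 and 82.6 for Myc, and 88.6 and 87.5 for PCM1, where Myc overlapped Input, and its pileup over background averaged 58.3 ± 1.74, 46.2 ± 3.55 and 82.5 ± 0.830 for Input, Myc and PCM1, with no overlap between groups. The promoter of Hcn4 behaved differently. At -0.604 kb the percentiles were 74.0 and 63.3 for Input, 77.3 and 69.4 for Myc, and 60.7 and 59.7 for PCM1, with PCM1 lowest, whereas pileup over background averaged 30.7 ± 4.87, 38.2 ± 5.80 and 33.5 ± 1.90 and the groups overlapped. Of the other 11 Hcn4 regions none was found in more than 4 libraries.

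Cacna1g (ENSMUSG00000020866.17, chr11:94408391-94474198, minus strand), which encodes the T-type calcium channel Cav3.1, had 7 regions present in all 6 libraries. Its strongest region, in intron 9 at +23.0 kb, was at percentile 98.3 and 96.9 for Input, 93.6 and 95.5 for Myc, and 95.8 and 97.8 for PCM1, so that Myc lay below the 4 others, the gap to PCM1 replicate 1 being narrow. The pileup over background was 167 ± 2.85 for Input, 113 ± 16.5 for Myc and 174 ± 36.0 for PCM1. The promoter at -0.233 kb went the opposite way. It was at percentile 88.7 and 79.6 for Input, 92.7 and 92.6 for Myc, and 86.6 and 80.2 for PCM1, with both Myc libraries highest. There the pileup over background was 49.2 ± 0.498 for Input, 87.2 ± 1.69 for Myc and 56.2 ± 7.40 for PCM1, and the Myc mean was 1.77 times that of Input and 1.55 times that of PCM1.

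Elsewhere in Cacna1g, the intron 32 region at +61.4 kb was at percentile 83.6 and 72.8 for Input, 61.5 and 62.0 for Myc, and 84.8 and 74.8 for PCM1, with Myc below the 4 others. This region is within 1 kb of the start of an annotated noncoding transcript of the gene. The intron 13 region at +32.9 kb was highest in Input, at 78.4 and 77.0, against 43.7 and 0 for Myc and 46.6 and 51.8 for PCM1. The intron 21 region at +45.5 kb, at 84.9 to 94.1 in all 6 libraries, separated no group from the rest. Open sites of 1 gene thus differed in which group stood apart.

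Kcnj3 (ENSMUSG00000026824.11, chr2:55435970-55598145, plus strand) encodes the GIRK1 subunit of the acetylcholine-activated potassium channel, through which the vagus slows the node. By the mean over the 6 libraries its strongest peak and that of Shox2 ranked lowest of the 9. Its start region at +0.431 kb was at percentile 65.6 and 50.6 for Input, 49.0 and 28.6 for Myc, and 34.2 and 51.2 for PCM1. The groups of Input and Myc did not overlap there, though the gap was narrow, and PCM1 overlapped both. The pileup over background was 19.2 (15.1 to 24.0) in Input replicate 1 and 18.7 (12.3 to 27.3) in Myc replicate 1, with overlapping intervals. The strongest region in most libraries was in intron 3 at +44.5 kb, with 69.1 and 72.0 for Input, 62.5 and 74.7 for Myc, and 0 and 54.3 for PCM1. The 27 tags of Input replicate 2 and the 16 tags of PCM1 replicate 2 at this summit gave 26.4 (17.4 to 38.4) and 17.7 (10.1 to 28.8) over background, and these intervals overlap. An upstream region at -3.60 kb was found in the Input and Myc libraries, at 16.6 to 52.7, and in neither PCM1 library.

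The connexin genes Gja5 and Gjc1 encode gap junction proteins that pass the impulse from cell to cell. Gja5 (ENSMUSG00000057123.14, chr3:96904693-97077416, plus strand) encodes Cx40, found in atria, the His-Purkinje network and arterial endothelium. Its strongest region, in intron 3 at +158 kb and also in an intron of the noncoding gene 4930573H18Rik, was at percentile 99.2 and 98.4 for Input, 91.7 and 93.7 for Myc, and 99.1 and 98.5 for PCM1. The summit held 727 and 195 tags for Input, 102 and 126 for Myc, and 188 and 163 for PCM1. Input and PCM1 overlapped closely, at 187 ± 4.74 and 186 ± 8.43 over background, and Myc was apart from both at 79.3 ± 12.0. The Input mean was 2.36 times the Myc mean. This was the largest of the Input to Myc ratios over the 26 regions found in all 6 libraries.

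**Figure D3:**
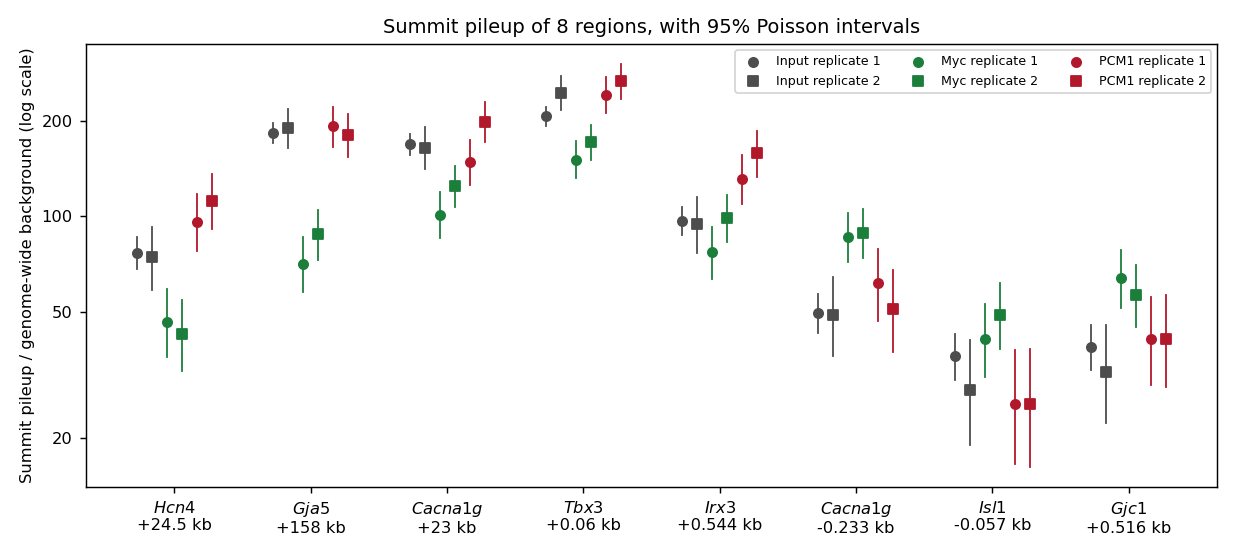
Summit pileup divided by the genome-wide background (y axis, log scale) in 8 regions, the strongest of its kind in each gene, with 1 point per library and exact 95% Poisson intervals for counting error. Myc libraries were lowest in the intron regions of Hcn4, Gja5 and Cacna1g and at the Tbx3 start, and highest at the starts of Cacna1g, Isl1 and Gjc1.

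Within Gja5 the regions did not move together. The intron 1 region at +34.2 kb was at percentile 87.8 and 81.2 for Input, 87.6 and 92.3 for Myc, and 63.3 and 72.6 for PCM1, with PCM1 below the 4 others, and the Myc mean pileup over background was 2.35 times that of PCM1. The region at +168 kb was at 39.7 and 32.9 for Input, 39.6 and 28.6 for Myc, and 42.2 and 56.8 for PCM1, with PCM1 above the 4 others. A weak region at +59.0 kb, at 8.24 and 5.27 in the Input libraries, was the only 1 of the 80 present in both libraries of a single group and nowhere else (1.08% of all regions were Input-only by this rule, 1.84% Myc-only and 0.254% PCM1-only). At the annotated start the peak at +0.637 kb is shared with the promoter of Gpr89, a Golgi protein, and percentiles there were 89.7 and 82.5 for Input, 89.2 and 90.6 for Myc, and 88.6 and 66.3 for PCM1, with Myc above PCM1 and Input overlapping both. The second annotated start of Gja5 had a region at +128 kb with percentiles of 60.7 and 37.9 for Input, 18.7 and 45.1 for Myc, and 0 and 56.6 for PCM1, with all groups overlapping.

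Gjc1 (ENSMUSG00000034520.14, chr11:102799579-102819700, minus strand) encodes Cx45, the connexin of nodal cells. Its start region at +0.516 kb was at percentile 83.9 and 65.1 for Input, 86.7 and 83.4 for Myc, and 74.5 and 71.2 for PCM1, with Myc above PCM1 and Input across both. The pileup over background was 35.4 ± 4.55 for Input, 60.1 ± 5.26 for Myc and 41.0 ± 0.0232 for PCM1, and on this scale Myc was above the 4 other libraries. The intron 2 region at +18.4 kb, whose sequence holds an NKX2-5 element, was at 75.2 and 69.6 for Input, 48.6 and 54.5 for Myc, and had no peak in either PCM1 library. Beyond the end of the gene at +27.9 kb the order was different, with 52.2 and 36.8 for Input, 47.3 and 27.7 for Myc, and 72.0 and 61.8 for PCM1, and the PCM1 mean pileup over background was 2.18 times that of Input and 2.24 times that of Myc.

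The comparison of Myc with PCM1 asks whether nuclei chosen by lineage differ from those chosen by an endogenous protein. By strongest peak, Myc was lower than PCM1 without overlap in 5 of the 9 genes (Hcn4, Tbx3, Gja5, Irx3 and Cacna1g), a call made in 11.9% of the 18624 protein-coding genes with a peak. Myc was higher in the remaining 4 (Shox2, Isl1, Gjc1 and Kcnj3), against 60.3%, a call that Kcnj3 lost with equal numbers of peaks and by pileup. The mean differences ran from -9.81 percentile points at Hcn4 to 26.4 at Shox2. The Shox2 values in this comparison are those of the Rsrc1 promoter peak. Against Input, Myc was lower in 4 genes (Hcn4, Tbx3, Gja5 and Cacna1g), against 11.7% of all genes, and higher in Shox2 alone, against 28.8%. PCM1 was higher than Input in Tbx3 and Irx3, against 5.48%, and lower in Kcnj3, against 33.1%. By the peak at the gene's own TSS, Myc was higher than PCM1 in 5 genes (Hcn4, Isl1, Gja5, Gjc1 and Cacna1g) and lower in Tbx3 and Irx3, against 62.8% and 8.3% of the 15954 genes with such a peak. For Gja5 that peak is the one shared with the Gpr89 promoter. At the TSS Myc was higher than Input in Cacna1g and lower in Tbx3 and, by a narrow gap, in Kcnj3, against 28.9% and 9.17%. PCM1 was higher than Input at the TSS in Tbx3 and Irx3 and lower in Hcn4, against 3.68% and 35.2%. The comparisons share libraries, so these counts are not independent of each other. With the strongest 75336 peaks of each library, Myc was below PCM1 in 5 genes, against 22.3% of all genes, and above it in 3, against 43.4%. Against Input, Myc was then lower in 5 genes and higher in 2, against 21.7% and 38.7%, and PCM1 was higher in 3 and lower in 2, against 22.0% and 31.8%. With the pileup over background in place of ranks, Myc was below PCM1 in 5 genes, against 19.0% of all genes, and above it in 3, against 50.3%. On that scale it was below Input in 4 genes and above it in 3, against 18.0% and 48.0%, and PCM1 was above Input in 3 and below it in 1, against 21.6% and 32.3%. The share of all genes with PCM1 above Input thus moved from 5.48% to 22.0% and 21.6% with these changes, while the members called went from 2 to 3. With ranks by the deposited fold, Myc was below PCM1 in 4 genes, against 16.0%, and above it in 5, against 46.7%, and Cacna1g changed direction to a mean of 4.08 percentile points higher in Myc. By fold, Myc was below Input in 5 genes and above it in 1, against 17.1% and 25.3%, and PCM1 was above Input in 2 and below it in 4, against 10% and 29.4%.

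**Figure D4:**
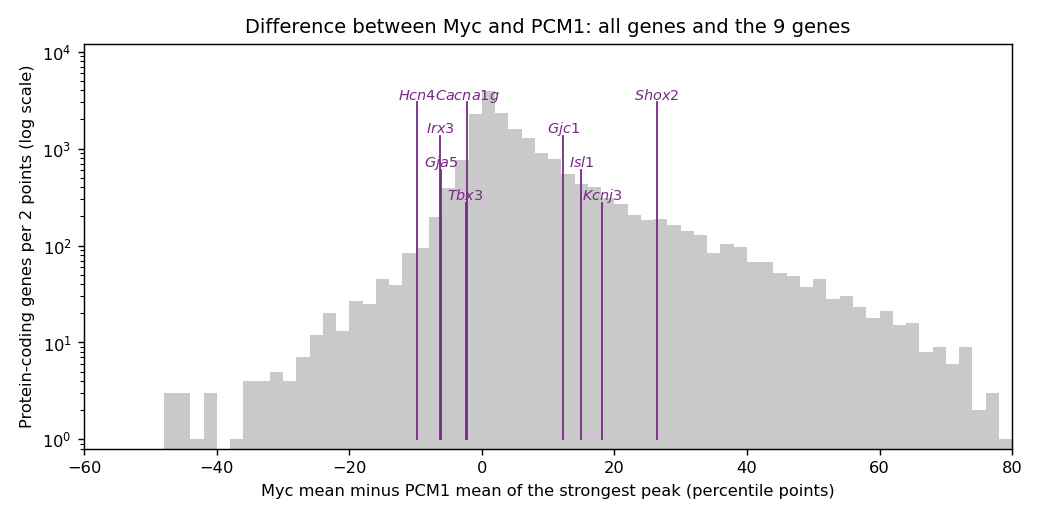
Mean rank percentile of the strongest peak in Myc minus that in PCM1 (x axis, percentile points) for protein-coding genes with a peak (grey, number of genes on a log scale), with the 9 genes as vertical lines whose heights carry no value. The lines run from -9.81 at Hcn4 to 26.4 at Shox2, with 5 to the left of 0 and 4 to the right. The Shox2 line is that of the Rsrc1 promoter peak.

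Regions at gene starts and regions away from them were set apart in a split chosen after their values were seen. Of the 26 regions found in all 6 libraries, 10 were within 1 kb of a TSS of any gene and 16 were not. Myc was higher than PCM1 in 6 of the 10 near a TSS, against 62.0% of such regions in the genome, and in 3 of the 16 away from one, against 38.4%. It was lower than PCM1 in 3 of the 10, against 11.5%, and in 6 of the 16, against 18.6%. Against Input, Myc was lower in 5 of the 16 away from a TSS and higher in 0 of them, against 17.0% and 13.4%, and lower in 3 of the 10 near one and higher in 2, against 11.2% and 27.2%. PCM1 was higher than Input in 2 of the 16 and lower in 2, against 5.12% and 24.4%, and higher in 2 of the 10 and lower in 1, against 4.08% and 35.8%. Over all 80 regions Myc was lower than PCM1 in 11 and higher in 17, against 7.14% and 27.9%, and lower than Input in 12 and higher in 2, against 8.41% and 12.2%. PCM1 was higher than Input in 4 and lower in 13, against 2.7% and 15.7%.

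**Figure D5:**
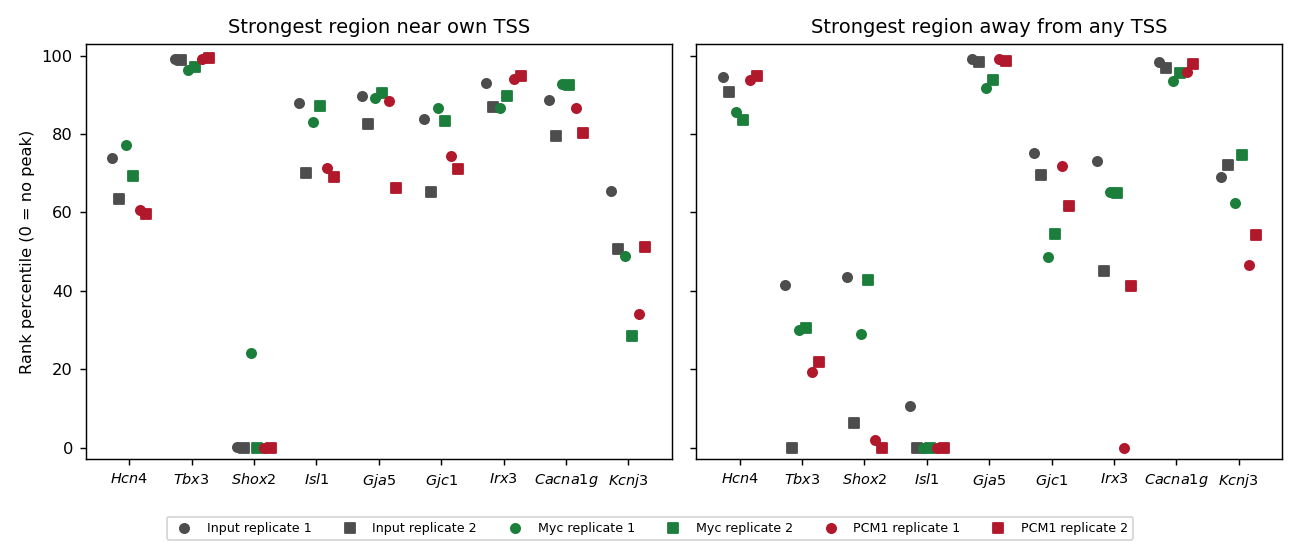
Rank percentile (y axis, 0 where no peak was called) of the strongest region within 1 kb of the gene's own TSS (left) and of the strongest region more than 1 kb from any TSS (right), for each gene with 1 point per library. At Hcn4, Gja5, Gjc1 and Cacna1g the Myc libraries were the lowest in the right panel and not in the left; at Gjc1 the strongest region was another one in PCM1 (+27.9 kb) than in Input and Myc (+18.4 kb).

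Other genes of the same system were taken from 4 lists of 28 genes in all, and all 28 had a peak in all 6 libraries. By strongest peak, Myc was lower than PCM1 in 10 and higher in 12, and lower than Input in 10 and higher in 2. PCM1 was higher than Input in 3 and lower in 9. The shares over all genes are those given above for the 9 genes. Genes with Myc below both other groups included Nkx2-5, the homeobox factor of the cardiac lineage, at 97.6 and 95.9 for Input, 91.7 and 93.4 for Myc, and 95.8 and 96.2 for PCM1. The Myc hearts carry Cre at 1 Nkx2-5 allele, so this locus differed in genotype between the groups, and the part of this in its values was not tested. Kcnj5, the partner of Kcnj3 in the same potassium channel, was at 98.9 and 97.8 for Input, 97.1 and 96.8 for Myc, and 98.4 and 98.6 for PCM1, an order unlike that of Kcnj3. Slc8a1, Rgs6, Kcne1 and Popdc2 were also lowest in Myc.

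Cacna1d, the L-type calcium channel of nodal cells, had Myc highest, at 98.5 and 97.9 against 96.1 and 93.2 for Input and 96.6 and 95.8 for PCM1, as did Cntn2, a Purkinje cell adhesion protein. Genes with PCM1 lowest included Tbx18, Id2, Gja1 and Etv1, and Tbx18, a T-box factor of the node's head, was at 91.4 and 83.9 for Input, 91.2 and 90.0 for Myc, and 79.1 and 81.0 for PCM1. PCM1 was highest at Hcn2, Gjd3 and Kcne1, and Input at Irx5, Slc8a1 and Rgs6. Within the lists the median over the 6 libraries ran from 78.1 at Tbx2 to 95.9 at Nkx2-5 among transcription factors and signals, from 82.3 at Cacna1h to 98.1 at Kcnj5 among channels and calcium cycling genes, from 67.1 at Cntn2 to 97.8 at Kcne1 among genes of the ventricular network, and from 72.2 at Smoc2 to 96.9 at Popdc2 among node markers.

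Markers of cardiomyocytes and of other cardiac cell types were set beside these values, although the cushion is meant to remove nuclei of the other types from all 6 libraries. Of 12 cardiomyocyte genes, 9 had Myc below Input, 10 had Myc below PCM1 and 5 had PCM1 above Input, against 11.7%, 11.9% and 5.48% of all genes. Their summed percentile ran from 1076 to 1126 for Input, 1051 to 1076 for Myc and 1103 to 1107 for PCM1. Myh6, the atrial and adult myosin heavy chain, was at 99.0 and 98.7 for Input, 88.8 and 92.6 for Myc, and 99.3 and 99.2 for PCM1. Of 8 fibroblast genes, 7 had Myc above PCM1, against 60.3% of all genes, and their sums were 445 to 567 for Input, 545 to 592 for Myc and 427 to 463 for PCM1. Sums of the 8 endothelial genes were 629 to 706, 693 to 700 and 653 to 676, and those of the 8 neuronal and neural crest genes were 398 to 523, 489 to 496 and 411 to 428. The fibroblast marker Lum had no peak in Input replicate 2 and PCM1 replicate 1, and the neuronal marker Stmn2 none in Input replicate 2. The part of these marker values in the values of the 9 genes was not tested.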

How the data were processed

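Per the study's methods, reads were quality-trimmed by the authors and aligned to the mm10 genome using Bowtie2 2.3.3.1. Duplicates were marked (Picard 2.2.1), blacklisted regions were taken out (bedtools 2.7.1), alignments were offset for the Tn5 cut, and MACS2 2.1.0.20160309 was run per library at a q-value of 0.05, which gave the deposited list of each library. In it the authors' fold is the ratio of the summit pileup to the local background, the deposited -log10 values are the p-value and q-value of the summit, and the deposited score is the -log10 q-value times 10 as a whole number. No read counts or coverage were used.

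Peaks of the 6 lists were merged with bedtools 2.31.1 and annotated with GENCODE M21 in Python 3.11.15 (numpy 2.4.6, pandas 2.3.3, scipy 1.17.1, matplotlib 3.10.9). A library's value for a gene was its strongest peak in the gene and 10 kb to either side, ranked by -log10 q, and a value was called apart when both libraries of a group lay beyond both of another. Pileup and background were solved from fold and p-value, and over 99.9% of pileups came out whole within 0.02 in -log10 p. The members, the gene lists and the motifs were chosen with earlier results of these data known. Named were all 9 genes, their start region, their strongest region and up to 2 regions per gene with a group apart, and from each list the highest and lowest gene and those with a group apart from both others. Further regions and genes were named after their values were seen. Some list genes that this rule names are not reported here, though the list counts include them. Alternatives were a q-value of 0.01, the strongest 75336 peaks of each library, 50% reciprocal overlap, ranks by fold, pileup over background, windows of 2 kb, TSS peaks within 200 bp and each library left out. The computations were tested on simulated data. Reads, fragment lengths and the external DHS-seq data were not analysed here. RefSeq's GRCm38 sequence was read for the sequences and motifs.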

Additional observations from a re-analysis of the deposited data

How the results depend on the processing

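No paired analysis was possible because the results come from no test and the groups share only the numbers 1 and 2, and the labels do not say whether any libraries share a nuclei preparation. Of 17 gene-level separations, 12 kept direction and separation under all 5 settings other than left-out libraries. Shox2 lost Myc over Input with windows of 2 kb, Tbx3 lost PCM1 over Input by pileup, Kcnj3 lost PCM1 under Input and Myc over PCM1 with equal numbers of peaks and by pileup, and the Myc minus PCM1 difference at Cacna1g reversed to 4.08 percentile points by fold. The cause was not tested, except that windows of 2 kb leave out the Rsrc1 promoter peak of Shox2. Each count below is followed by the share of all genes or regions under the same setting. With equal numbers of peaks, genes with Myc above Input numbered 2 (38.7%) in place of 1, and PCM1 below Input 2 (31.8%) in place of 1. Regions numbered 2 in Input only (1.01%) in place of 1, 2 in PCM1 only (1.35%) in place of 0, 7 for Myc above Input (18.0%) in place of 2, 14 for PCM1 above Input (14.9%) in place of 4, 8 for Myc above PCM1 (20.2%) in place of 17 and 18 for Myc below PCM1 (18.4%) in place of 11. By pileup, 3 genes had Myc above Input (48.0%), and regions numbered 13 for Myc above Input (24.7%), 16 for PCM1 above Input (13.8%) and 11 for Myc above PCM1 (22.6%). By fold, 4 genes had PCM1 below Input (29.4%) and 4 regions had Myc above Input (12.1%). With windows of 2 kb, 0 genes had Myc above Input (27.8%), 2 had PCM1 below Input (33.3%) and 1 region had Myc above Input, a share that the window does not change (12.2%). The median strongest-peak percentile of Myc, 86.8, was 81.1 with equal numbers and 85.2 by fold, and that of PCM1, 94.4, was 79.2 by fold. On the pileup scale, whose unit differs, the medians were 75.5 in Input, 60.1 in Myc and 104 in PCM1. A q-value of 0.01 moved none of these values by more than 1.5 times.

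Leaving out a library can only add separations of its group. Over the 6 choices, genes with Myc above Input ran from 1 to 3, PCM1 above Input from 2 to 5 (5 without Input replicate 1) and PCM1 below Input from 1 to 6 (6 without Input replicate 2). Regions in Input only ran from 1 to 9 (9 without Input replicate 2), in Myc only from 0 to 4 and in PCM1 only from 0 to 4. Regions with Myc above Input ran from 2 to 22 and PCM1 above Input from 4 to 22 (22 without Input replicate 1 in both), Myc below Input from 12 to 51 and PCM1 below Input from 13 to 54 (without Input replicate 2), Myc above PCM1 from 17 to 28 (without either Myc library) and Myc below PCM1 from 11 to 22 (without PCM1 replicate 1). The Input libraries differed most in depth, at 4.38 and 1.13 times the shallowest library, and counts against Input rest on that pair. Depth limits what a missing peak can say.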
